A study of Mus musculus with 13 samples.

Results

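Simple keratins and epithelial adhesion genes were followed through 13 bulk RNA-seq libraries of mouse ovary and ovarian tumor. The 9 genes, taken by symbol from the 53465 genes of the deposited table, were Krt7, Krt8, Krt18, Krt19, Epcam, Cdh1, Cldn3, Cldn4 and Cldn7, and each was found once. Their levels are given in TPM, the share of a library's transcripts corrected for gene length and scaled to a total of 1000000, so that levels may be compared between genes.

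Keratins are intermediate filament proteins that assemble as obligate pairs of a type II and a type I chain. Krt7 and Krt8 encode type II chains and Krt18 and Krt19 encode type I chains, and all are found in single-layered (simple) epithelia, where Krt8 and Krt18 are usual partners. Cdh1 encodes E-cadherin, the adhesion molecule of adherens junctions, Epcam encodes a surface adhesion glycoprotein of epithelial cells, and the claudins are the membrane proteins that seal tight junctions. In the normal ovary, these genes are known from the surface epithelium and, in part, from granulosa cells, and several serve as markers of ovarian carcinoma.

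The groups were ovaries and tumors. The 3 WT ovaries came from untreated wild-type C57BL/6 female mice, for which the labels' shared protocol gives an age of 8 to 12 wk. The 10 MP tumors, labelled Myc;p53-/- EPO-GEMM and also untreated, arose in wild-type C57BL/6 females after electroporation of the ovary at 8 to 12 wk of age with a MYC transposon, a Sleeping Beauty transposase and a vector carrying Cas9 and an sgRNA against Trp53. Electroporation did not select a cell type, and RNA was taken from whole tumors at end point, so tumor cells and host cells were measured together. The sample descriptions carry a number (igo) whose meaning they do not give and which may stand for a batch. The 3 WT ovaries and MP tumors 1 to 3 carry the first number, MP tumors 4 to 6 carry the second, and MP tumors 7 to 10 carry the third. Group and number can therefore be told apart within the first igo number only. Reads worked back from the table came to 31445004 to 64013840 per ovary and 3892690 to 19906507 per tumor, and a single read per kb of gene amounted to at most 0.109 TPM in an ovary and 0.790 TPM in a tumor. In MP tumor 2, 10 genes took 55.1% of all TPM, against at most 20.6% in any other library. Trp53 lay at 80.7 to 85.4 TPM in the ovaries, at 4.30 to 26.0 TPM in MP tumors 1 to 9, and at 187 TPM in the library labelled MP tumor 10, above every ovary. Edited Trp53 can still give RNA, so this level alone does not check the label.

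Several of the genes lie close together. Krt7, Krt8 and Krt18 are on mouse chromosome 15 (GRCm38), where Krt8 (minus strand, 101996711 to 102004342) and Krt18 (plus strand, 102028216 to 102032026) start 23.9 kb apart. Krt7 (101411043 to 101430313) starts 593 kb from Krt8. Cldn4 (134945119 to 134946934, minus strand) and Cldn3 (134986214 to 134987472, plus strand) start 39.3 kb apart on chromosome 5. Krt19 (100140810 to 100148665) and Cldn7 (69964779 to 69967885) are on chromosome 11, Epcam (87635979 to 87651106) is on chromosome 17, and Cdh1 (106603351 to 106670246) is on chromosome 8. RefSeq promoter windows of GRCm38.p6 were matched for 7 of the 9 genes. The stretches before the transcription start are printed for 4 of them. Krt18 and Epcam were taken because they had the highest Pearson's r among the tumors. Cldn3 and Cldn4 were taken because they are neighbors whose correlation did not pass the test. Capitals mark the E-box CACCTG, the letters bound by Snail and Zeb repressors, and the GC box GGGCGG, bound by Sp1, on either strand (CAGGTG and CCGCCC on the other). The Krt18 stretch lies at chr15:102027966-102028179 on the plus strand, Epcam at chr17:87635729-87635978 on the plus strand, Cldn3 at chr5:134985964-134986213 on the plus strand and Cldn4 at chr5:134946935-134947184 on the minus strand.
Krt18: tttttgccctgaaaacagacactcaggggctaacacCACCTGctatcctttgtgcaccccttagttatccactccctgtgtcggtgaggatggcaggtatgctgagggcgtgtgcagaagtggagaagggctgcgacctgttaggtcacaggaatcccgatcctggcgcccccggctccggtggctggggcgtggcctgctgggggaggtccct
Epcam: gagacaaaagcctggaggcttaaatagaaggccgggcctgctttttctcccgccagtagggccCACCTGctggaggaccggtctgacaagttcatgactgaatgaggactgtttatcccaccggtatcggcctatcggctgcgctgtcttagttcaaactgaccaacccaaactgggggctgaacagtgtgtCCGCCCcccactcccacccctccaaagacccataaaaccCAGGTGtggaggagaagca
Cldn3: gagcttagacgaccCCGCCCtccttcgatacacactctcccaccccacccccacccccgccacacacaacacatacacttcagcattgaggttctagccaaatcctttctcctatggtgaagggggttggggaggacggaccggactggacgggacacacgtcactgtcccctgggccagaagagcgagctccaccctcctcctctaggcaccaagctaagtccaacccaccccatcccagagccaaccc
Cldn4: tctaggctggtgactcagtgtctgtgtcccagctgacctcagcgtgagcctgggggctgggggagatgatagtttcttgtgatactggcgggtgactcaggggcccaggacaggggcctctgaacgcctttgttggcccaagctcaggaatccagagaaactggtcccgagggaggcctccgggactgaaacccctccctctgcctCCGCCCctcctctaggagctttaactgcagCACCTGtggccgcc
Bases that GENCODE M21 places in an exon are left out, so the Krt18 stretch has 214 bases and ends before the start given above, whereas motifs were counted in the full window. In the 250 bases before the start, Krt18 held 1 E-box, Epcam 2, Cldn4 1 and Cldn3 0, while Epcam, Cldn3 and Cldn4 each held 1 GC box. Krt7 and Krt8 also held 1 E-box each, Krt7 held 4 GC boxes, and Cldn7 held 2 E-boxes and 1 GC box before the second of its 2 RefSeq starts and none before the first. The Krt7 window begins at 101412153, inside the gene span given above. Only its first 39 bases precede a GENCODE M21 exon, and all Krt7 matches lie past them. The Krt8 window and the second Cldn7 window also run into exons, after 110 and 0 bases. Among 32851 promoter windows of the same length, 17.2% held CACCTG and 32.7% held GGGCGG. The TATA box TATAAA, present in 12.4% of windows, and the Grainyhead motif AACCGGTT, present in 0.116%, were found before none of the 7 genes. A match shows only that these letters are present.

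**Figure D1:**
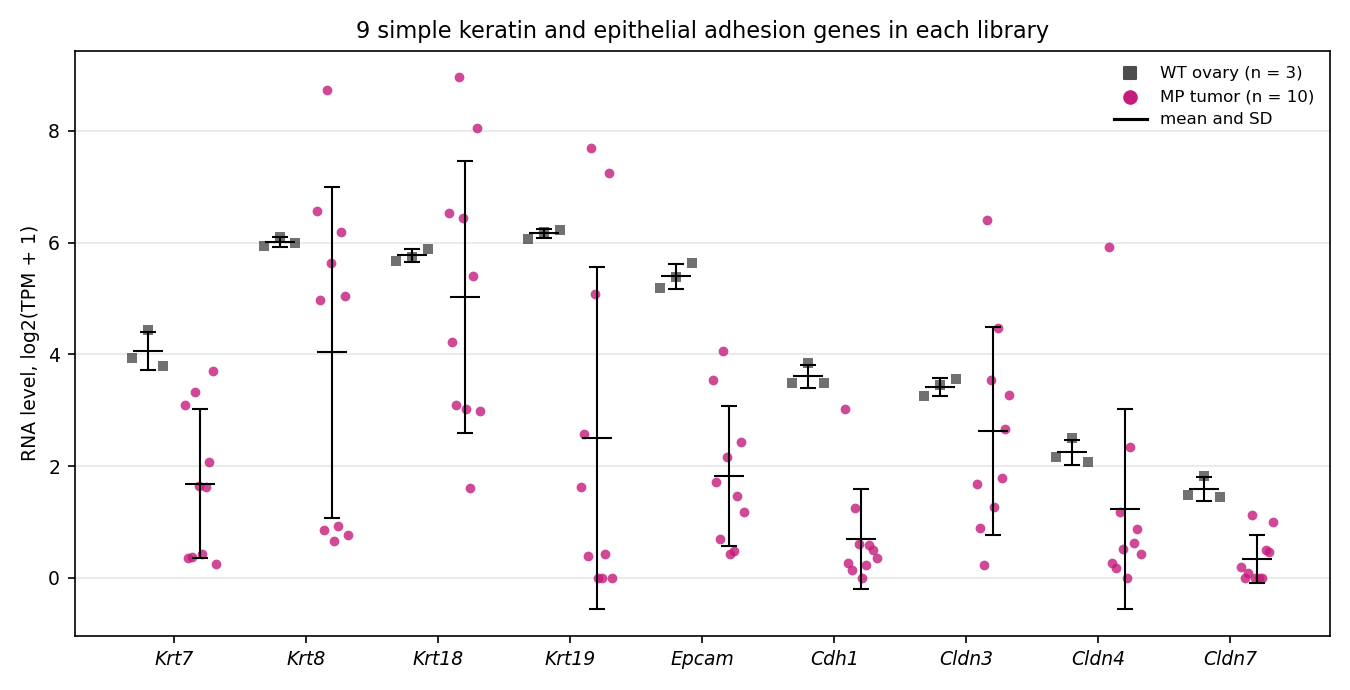
RNA level of the 9 genes on a log2(TPM + 1) scale, with a square per WT ovary, a circle per MP tumor, and a bar for the mean and SD of each group. The 3 ovaries sit close together for every gene, all 10 tumors lie below all 3 ovaries for Krt7, Epcam, Cdh1 and Cldn7, and tumors lie on both sides of the ovaries for Krt8, Krt18, Krt19, Cldn3 and Cldn4.

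Krt8, a common marker of simple epithelium, separated the tumors into 4 nearly without it and 6 with it. The ovaries had 60.7, 68.0 and 62.4 TPM. MP tumors 3, 6, 7 and 10 had 0.822, 0.590, 0.915 and 0.712 TPM, which in tumors 6, 7 and 10 rested on 3, 4 and 2 reads. MP tumors 1, 2, 4, 5, 8 and 9 had 93.2, 30.4, 425, 48.6, 72.1 and 31.9 TPM, so that 3 of the 10 tumors were above every ovary and 7 were below. The empty interval between both sets of tumors spanned 4.04 log2 units, 50.0% of the whole range. Both sets contained tumors of all 3 igo numbers. Tumors and ovaries did not differ beyond the spread of the tumors (log2 fold change -1.98 ± 1.53 SE, 95% interval -5.23 to 1.28, limma adjusted P = 0.371). The pseudogene Krt8-ps was listed at no more than 2.42 TPM in any library.

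Krt18, the usual type I partner of Krt8, was detected in every library. The ovaries had 50.3, 52.5 and 58.4 TPM. The tumors ran from 2.06 TPM in MP tumor 7 through a median of 29.5 TPM to 496 TPM in MP tumor 4, which was 9.24 times the mean of the ovaries. MP tumors 1, 4, 5 and 9 were above every ovary and the other 6 were below. The 4 tumors with under 1 TPM of Krt8 had the 4 lowest levels of Krt18, and 3 of them, tumors 3, 6 and 10, still had 6.89 to 7.50 TPM. No difference between groups was detected (log2 fold change -0.74 ± 1.26 SE, limma adjusted P = 0.692, 95% interval -3.43 to 1.94).

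Krt7, a type II keratin and a marker of ovarian carcinoma, was lower in the tumors. It lay at 14.3, 20.7 and 12.9 TPM in the ovaries. The tumors ran from 0.182 TPM in MP tumor 10 through a median of 2.12 TPM to 12.1 TPM in MP tumor 9, all below the lowest ovary, and MP tumors 1 and 4 had 7.55 and 9.01 TPM. MP tumor 9 came within 1 TPM of WT ovary 3. The log2 fold change was -2.37 (standard error 0.75, limma adjusted P = 0.0413), beside a median of -0.58 for the 17277 genes tested. This call was lost without WT ovary 1, 2 or 3 (limma adjusted P = 0.132, 0.166 and 0.122) and without MP tumor 2, 3, 6, 7 or 8 (limma adjusted P between 0.0535 and 0.0617), and the fold change stayed between -2.59 and -2.18 whichever library was left out. It was also lost with a pseudocount of 0.1, with no filter, and with median-of-ratios or quantile scaling, where the limma adjusted P was 0.0815, 0.0570, 0.0957 and 0.134.

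Krt19, a type I keratin that can pair with either type II chain here, was the most abundant of the 9 genes in the ovaries and 1 of the most uneven in the tumors. The ovaries had 66.4, 71.7 and 74.3 TPM. MP tumors 4 and 9 had 205 and 151 TPM, above every ovary, and MP tumor 5 had 32.8 TPM. The other 7 tumors lay between 0 and 4.95 TPM. No read was counted in MP tumors 6, 7 and 10, where 3 reads would have given 0.574, 0.668 and 1.04 TPM. The log2 fold change of -3.66 had a standard error of 1.58 and did not pass the test (limma adjusted P = 0.122). It passed without MP tumor 4 (log2 fold change -4.24, limma adjusted P = 0.0457) and without MP tumor 9 (-4.19, limma adjusted P = 0.0468), with the igo number as a covariate (-4.63, limma adjusted P = 0.0496), and with voom on the recovered reads (-4.68, limma adjusted P = 0.0211). With that covariate the fold change compares MP tumors 1 to 3 with the ovaries, so MP tumors 4 and 9 do not enter the fold change.

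The proportions of the keratin chains differed between tumors as well as their levels. Type I RNA (Krt18 plus Krt19) stood at 1.40 to 1.76 times type II RNA (Krt7 plus Krt8) in the ovaries. In the tumors this ratio ran from 0.553 in MP tumor 8 to 9.44 in MP tumor 9, where Krt18 alone was 8.28 times Krt8. Krt19 supplied 56.0% to 57.7% of type I RNA in the ovaries and no more than 36.4% in any tumor. MP tumor 1 combined 90.9 TPM of Krt18 with 2.10 TPM of Krt19, and MP tumor 8 combined 41.3 TPM with 0.352 TPM. In the tumors with 30 TPM or more of Krt8, Krt8 supplied 72.6% to 99.1% of type II RNA, against 76.7% to 82.8% in the ovaries. These ratios are descriptions, and no test was made of them.

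**Figure D2:**
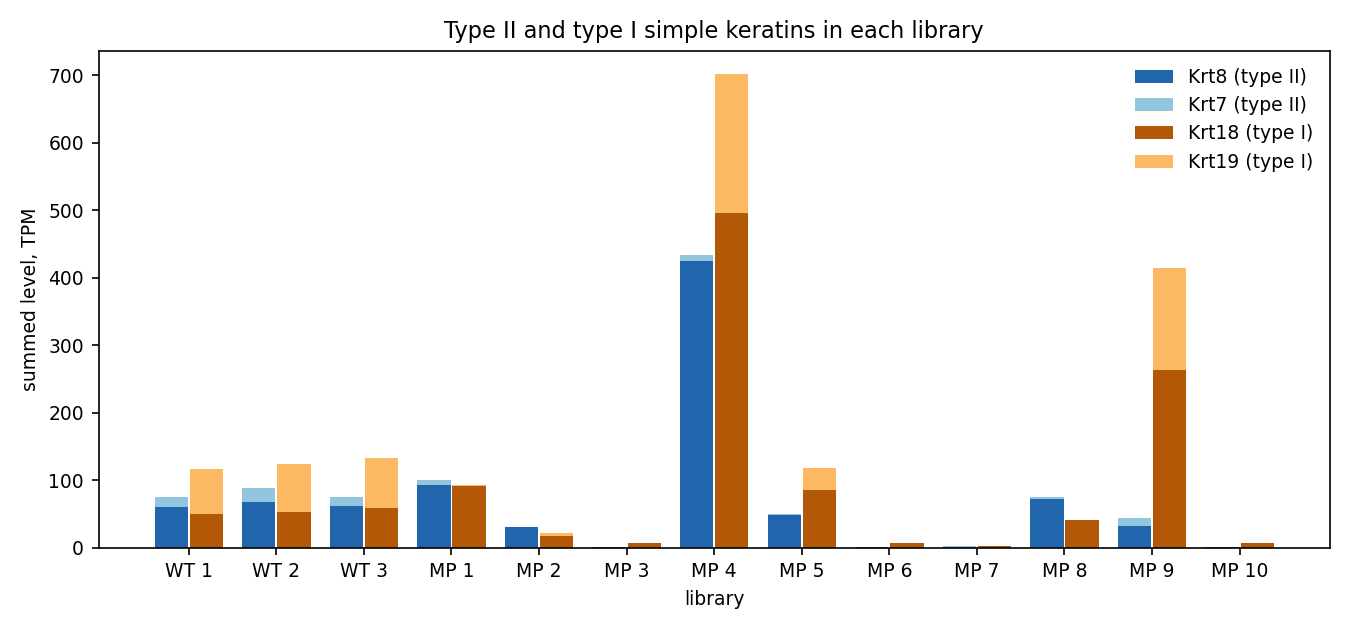
Summed TPM of the type II keratins Krt7 and Krt8 and of the type I keratins Krt18 and Krt19 in each library, as stacked bars from 0. MP tumors 4 and 9 carry the tallest type I bars, with 701 and 415 TPM, MP tumors 3, 6, 7 and 10 carry almost no type II RNA, and Krt19 is a visible part of the type I bar in the ovaries and in MP tumors 4, 5 and 9.

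Both adhesion molecules were lower in the tumors. Epcam lay at 35.3, 40.6 and 48.6 TPM in the ovaries. The tumors ran from 0.348 TPM in MP tumor 6, on 2 reads, through a median of 2.03 TPM to 15.7 TPM in MP tumor 4, and MP tumor 1 had 10.7 TPM. Every tumor was thus below every ovary, including those with more Krt8 and Krt18 than any ovary. The log2 fold change was -3.58 (standard error 0.71, limma adjusted P = 0.00287), and it passed the test under each alternative tried, with an adjusted P between 0.000664 and 0.0252. In bulk tissue, fewer cells that express a gene and less RNA of that gene per cell cannot be told apart.

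Cdh1 (E-cadherin) lay at 10.2, 13.4 and 10.2 TPM in the ovaries. MP tumor 1 had 7.15 TPM and MP tumor 4 had 1.38 TPM. The other 8 tumors had 0 to 0.518 TPM, with no read in MP tumor 6, where 3 reads would have given 0.233 TPM. Cdh1 reached 1 TPM in 5 libraries, namely the 3 ovaries and MP tumors 1 and 4, so it entered the test largely through the ovaries. The log2 fold change was -2.91 (standard error 0.52, limma adjusted P = 0.00130), and the adjusted P lay between 7.81e-06 and 0.0389 under the alternatives.

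The 3 claudins behaved differently from one another. Cldn3 had 8.50, 9.92 and 10.8 TPM in the ovaries and ran from 0.181 TPM in MP tumor 3 through a median of 3.92 TPM to 84.2 TPM in MP tumor 4. MP tumors 4 and 7, the latter with 21.3 TPM, were above every ovary, and MP tumors 5 and 10 lay within the range of the ovaries at 10.7 and 8.68 TPM. Tumor 7 thus had more Cldn3 than any ovary with the lowest Krt18 of all libraries. Cldn4 had 3.49, 4.66 and 3.22 TPM in the ovaries. It reached 60.0 TPM in MP tumor 1 and 4.09 TPM in MP tumor 7, and lay at 1.26 TPM or less in the other 8 tumors. Cldn7 was the lowest of the 9 genes, with 1.80, 2.56 and 1.74 TPM in the ovaries and 0 to 1.18 TPM in the tumors. No Cldn7 read was counted in MP tumors 2, 5, 6 and 7, where 3 reads would have given 0.277 to 1.22 TPM, and only MP tumor 4 reached 1 TPM.

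Of the claudins, Cldn7 alone passed the test (log2 fold change -1.25 ± 0.29 SE, limma adjusted P = 0.00827), although it entered the test through the 3 ovaries and 1 tumor that reached 1 TPM. Its call was lost without WT ovary 2 (-1.13, limma adjusted P = 0.0604) and with quantile normalization (-0.68, limma adjusted P = 0.0626). Its fold change is small on this scale because the pseudocount of 1 is close to its level, and voom on the recovered reads gave -2.73 (limma adjusted P = 0.0249). Cldn3 gave -0.79 (standard error 0.99, limma adjusted P = 0.584, 95% interval -2.91 to 1.33) and Cldn4 gave -1.01 (standard error 0.94, limma adjusted P = 0.457, 95% interval -3.02 to 0.99). Cldn3 was called lower with the igo number as a covariate (-2.48, limma adjusted P = 0.0475), where 49.4% of all tested genes were, and turned to 0.10 with quantile normalization (limma adjusted P = 0.946). Cldn4 was called lower without MP tumor 1 (-1.54, limma adjusted P = 0.0288). Cldn3 made up 57.8% to 68.4% of the RNA of the 3 claudins in the ovaries. In MP tumors 4 and 5 it made up 97.2% and 96.1%, whereas in MP tumor 1 Cldn4 made up 96.2%.

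**Figure D3:**
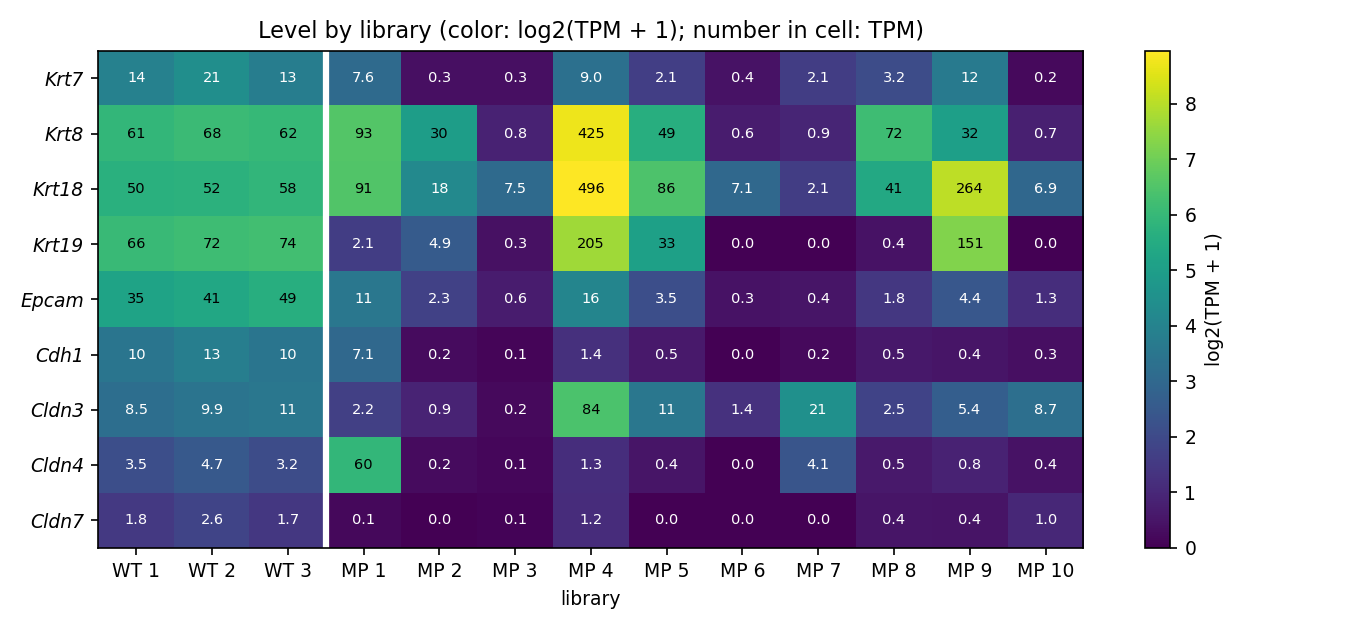
Level of the 9 genes (rows) in the 13 libraries (columns), colored by log2(TPM + 1) and labelled with TPM, with the ovaries left of the white line. MP tumor 4 is high for most genes, MP tumor 1 stands out for Cldn4 and Cdh1, and MP tumors 3, 6 and 10 are low in nearly every row, with Cldn3 at 8.7 TPM in MP tumor 10.

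In all, 4 of the 9 genes were lower in the tumors, none was higher and 5 did not pass the test, against 14.3% of the 17277 tested genes lower, 2.51% higher and 16.8% called in either direction. Because Cdh1 and Cldn7 entered the test largely through the ovaries, this count is a description. The same 4 genes, Krt7, Epcam, Cdh1 and Cldn7, had every tumor below every ovary, which held for 16.4% of all tested genes, while 3.02% had every tumor above every ovary. With the igo number as a covariate 6 of the 9 genes were lower, where 49.4% of all tested genes were, and with voom on the recovered reads 5 of the 9 were lower, where 23.4% of all tested genes were. As all 3 ovaries carry the first igo number, the covariate fit takes its fold changes from MP tumors 1 to 3. They equal those of the comparison within that number, so the 2 are not separate results. Without MP tumor 10 the count was also 4, where 2968 of the 17277 tested genes were lower. Without MP tumor 2 it was 3, where 2403 were lower, as the call on Krt7 was lost. It was 2 without WT ovary 2, where 1195 were lower, and 2 with quantile normalization, where 2091 were, as the calls on Krt7 and Cldn7 were lost. The median log2 fold change of the 9 genes was -1.98 and that of all tested genes was -0.58. Median-of-ratios scaling moved the median of all tested genes to -0.02 and called 1896 of the 17277 lower, and there Epcam, Cdh1 and Cldn7 were lower (-2.90, -2.33 and -0.93) and Krt18 was close to 0 (-0.04, standard error 1.26). MP tumor 4 had 4 of the 9 genes at or above the lowest ovary, MP tumor 1 had 3, and MP tumors 2, 3 and 6 had 0. MP tumor 2 is the library where 10 genes took 55.1% of all TPM, which leaves less for the other genes.

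Within the first igo number, where 3 tumors were compared with 3 ovaries, 6 of the 9 genes were lower, but 57.3% of all tested genes were lower in that comparison, 6.44% were higher and 63.7% were called in either direction. The genes were Krt7, Krt19, Epcam, Cdh1 and Cldn3, with log2 fold changes of -2.78, -4.63, -3.41, -2.46 and -2.48 beside a median of -1.19 over all tested genes, and Cldn7 (limma adjusted P = 0.000347). Krt8 (-1.88, limma adjusted P = 0.230) and Krt18 (-1.16, limma adjusted P = 0.231) did not pass. Without MP tumor 1 all 9 genes were lower in this comparison, where 61.7% of all tested genes were, Krt8 with a limma adjusted P of 0.0435, Krt18 with 0.00302 and Cldn4 with 0.000338. The call on Cdh1 was lost without WT ovary 2 or 3 or MP tumor 2 or 3 (limma adjusted P between 0.0593 and 0.0784). With median-of-ratios scaling 4 of the 9 genes were lower, where 31.6% of all tested genes were lower and 27.1% higher, as the calls on Krt7 (-1.79, limma adjusted P = 0.0998) and Cdh1 (-1.58, limma adjusted P = 0.160) were lost.

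**Figure D4:**
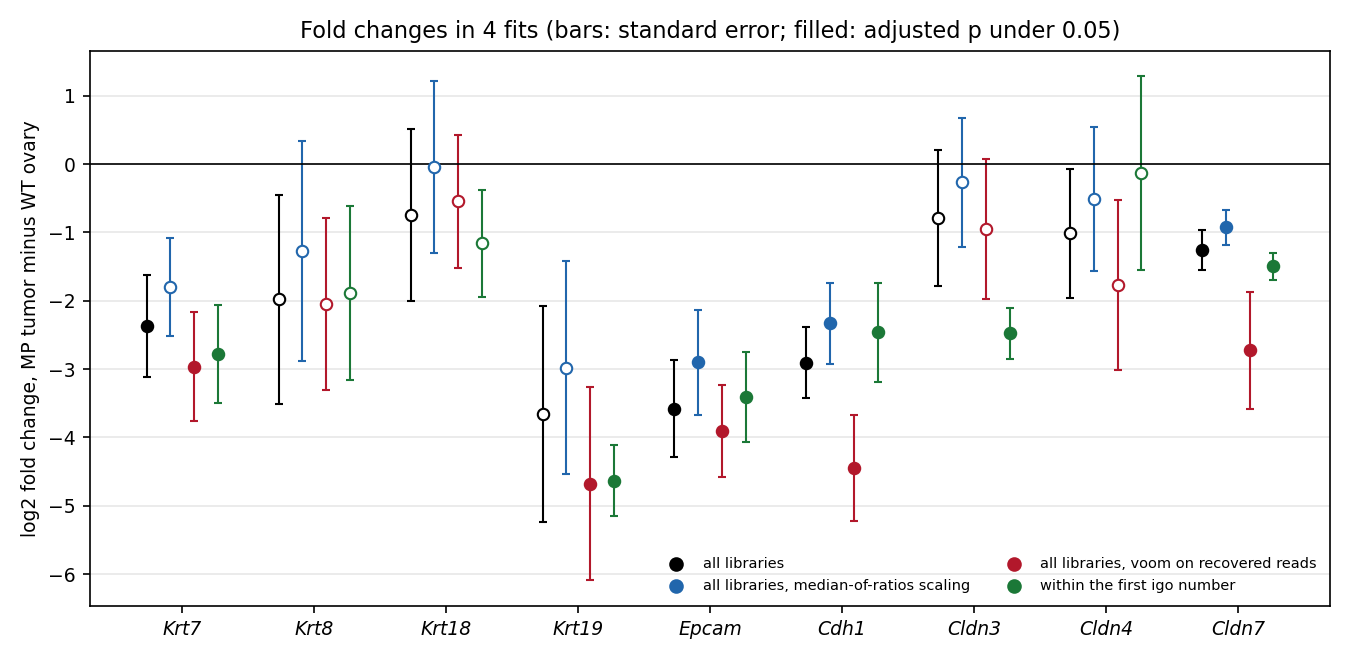
Log2 fold change of each gene, MP tumor minus WT ovary, in 4 limma fits, with bars for the standard error and filled symbols for an adjusted P under 0.05. The 3 fits of TPM are on the log2(TPM + 1) scale and voom is on a log2 scale of reads scaled to library size. Epcam, Cdh1 and Cldn7 are filled in all 4 fits, Krt8, Krt18 and Cldn4 in none, and the bars of Krt8, Krt18 and Krt19 are the longest of the keratins when all libraries are compared.

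The order of levels changed between groups. By median TPM the ovaries ranked Krt19, Krt8, Krt18, Epcam, Krt7, Cdh1, Cldn3, Cldn4 and Cldn7. The ranges of the 3 ovaries overlapped between Krt19 and Krt8, between Krt7 and Cdh1 and between Cdh1 and Cldn3, and not between the other neighbors. In the tumors, Krt8 (median 31.2 TPM) and Krt18 (29.5 TPM) ranked first, followed by Cldn3 (3.92 TPM), Krt7 (2.12 TPM), Epcam (2.03 TPM), Krt19 (1.23 TPM), Cldn4 (0.487 TPM), Cdh1 (0.346 TPM) and Cldn7 (0.101 TPM). Every pair of neighbors overlapped in the tumors, and Krt18 exceeded Krt8 in 7 of the 10 tumors although its median was lower. The coefficient of variation was 5.70% to 25.9% among ovaries and 115% to 276% among tumors, with Cldn4 highest.

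Co-variation was examined among the 10 tumors for the 36 pairs of genes on the log2(TPM + 1) scale. All points of a pair share their library, with its depth and the composition of its RNA. Because Krt8 separated the tumors into 2 sets, its 8 pairs were examined in the 6 tumors with Krt8 only, and the other 28 pairs in all 10. In those 28 pairs, Pearson's r ran from -0.08 to 0.90 with a median of 0.48, and 26 were positive. Krt18 and Epcam had the highest r, 0.90 (permutation P = 0.000480, adjusted over 36 pairs 0.00990) with Spearman's rho of 0.92 (permutation P = 0.000470, adjusted 0.00846). Without MP tumors 4 and 9, the farthest from the median of Krt18, r was 0.87 (exact permutation P = 0.00350). Krt18 and Krt19 had r of 0.88 (permutation P = 0.000550, adjusted 0.00990) and rho of 0.93 (permutation P = 0.000320, adjusted 0.00846), and r was 0.69 without tumors 4 and 9 (exact permutation P = 0.0439). These were the 2 pairs that passed adjustment by Pearson's r.

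By rank, 2 further pairs passed. Epcam and Cdh1 had rho of 0.89 (permutation P = 0.00117, adjusted 0.0111) and r of 0.76 (permutation P = 0.00623, adjusted 0.0561). Outside MP tumor 1, Cdh1 rested on 14 reads or fewer, and Epcam on 2, 2 and 4 reads in MP tumors 6, 7 and 10. The order of the low tumors in this pair thus rests on few reads. Krt19 and Epcam had rho of 0.89 (permutation P = 0.00123, adjusted 0.0111) and r of 0.74 (permutation P = 0.0167, adjusted 0.0925). The igo numbers hold 3, 3 and 4 tumors, too few for a value within each. In the 7 tumors of the second and the third igo number together, Krt18 and Epcam had r of 0.93 (exact permutation P = 0.00159, adjusted 0.0292) and Epcam and Cdh1 had r of 0.94 (exact permutation P = 0.00278, adjusted 0.0292). By rank neither passed there (rho of 0.89, exact permutation P = 0.0123 and adjusted 0.129 for both). In these tumors 21 pairs were examined, since Krt8 and Krt19 formed separate sets of fewer than 6 tumors, so Krt18 and Krt19 have no value. Leaving out MP tumor 5 removed the call on Krt18 and Krt19, since Krt19 then met the same rule for separate sets and the 7 tumors with low Krt19 gave r of 0.58 (exact permutation P = 0.175, adjusted 0.342). The call was also lost without MP tumor 2, where Krt19 also formed separate sets and r was 0.86 in the 6 tumors with low Krt19 (exact permutation P = 0.00833, adjusted 0.0569). The rank call on Krt19 and Epcam was lost without the same tumors. Its rho was 0.82 without MP tumor 2 (exact permutation P = 0.0667, adjusted 0.187) and 0.85 without MP tumor 5 (exact permutation P = 0.0286, adjusted 0.124).

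The other pairs did not pass adjustment, which does not show that they varied apart. Krt7 and Krt18 had r of 0.82 (permutation P = 0.00526, adjusted 0.0561) and rho of 0.81 (permutation P = 0.00760, adjusted 0.0547), and Krt7 and Epcam had r of 0.77 (permutation P = 0.0108, adjusted 0.0781). By r, Krt7 and Krt18 passed without MP tumor 1 (exact permutation P = 0.00821, adjusted 0.0383) and without MP tumor 7 (exact permutation P = 0.000692, adjusted 0.0125). Krt7 and Epcam passed by r without MP tumor 7 (exact permutation P = 0.00633, adjusted 0.0456). Cdh1 and Cldn4 had r of 0.90 (permutation P = 0.0180, adjusted 0.0925). Their r was 0.29 without MP tumor 1 (exact permutation P = 0.398) and 0.15 without MP tumors 1 and 4 (exact permutation P = 0.756). The pair passed with a pseudocount of 0.1 (r of 0.85, permutation P = 0.00506, adjusted 0.0418) and without MP tumor 7 (r of 0.97, exact permutation P = 6.89e-05, adjusted 0.00248). The neighbors Cldn3 and Cldn4 had r of 0.09 (permutation P = 0.804, adjusted 0.848) and rho of 0.60 (permutation P = 0.0726, adjusted 0.187). Krt19 and Cldn4 had r of -0.04 (permutation P = 0.927, adjusted 0.927). Within the 6 tumors with Krt8, Krt8 and Krt18 had r of 0.61 and rho of 0.60 (exact permutation P = 0.210 and 0.242), and none of the 8 pairs with Krt8 passed adjustment. With median-of-ratios scaling Krt8 did not meet the rule for separate sets, and over all 10 tumors Krt8 and Krt18 had r of 0.90 (permutation P = 0.000780, adjusted 0.00922) and Krt8 and Epcam had r of 0.90 (permutation P = 0.000190, adjusted 0.00342), so both pairs passed there. As a description, Epcam had the highest r with the mean of the 8 other genes (0.95) and Cldn4 the lowest (0.38).

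**Figure D5:**
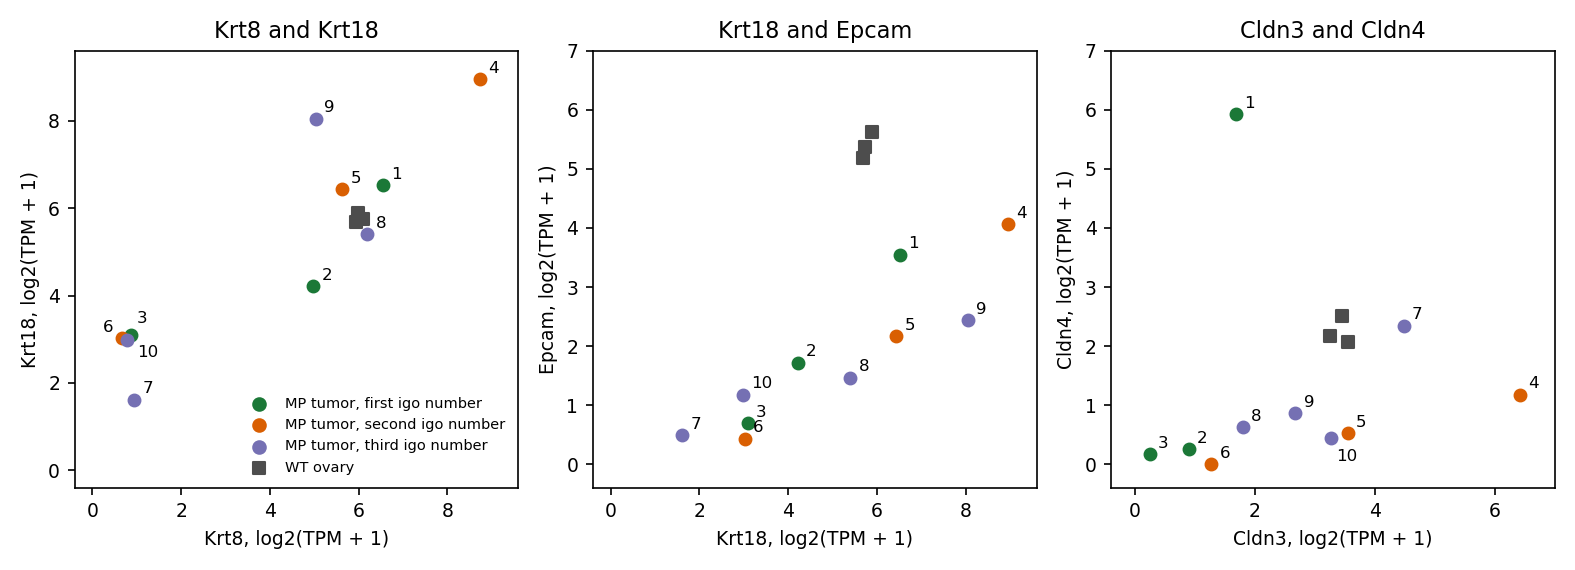
Levels of 3 gene pairs on log2(TPM + 1) axes, with numbered circles for MP tumors colored by igo number and squares for WT ovaries. MP tumors 3, 6, 7 and 10 are apart from the rest on the Krt8 axis, Epcam rises with Krt18 among the tumors while all ovaries lie above them, and MP tumor 1 is high for Cldn4 alone in the plot of Cldn3 and Cldn4.

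Among the 8825 genes ranked (tested genes with a mean of at least 10 TPM in the tumors), those whose pattern over the 10 tumors was most like the mean of the 9 genes were Gm10130 (Pearson's r of 0.91), H2-T23 (0.90), Srgn (0.87), Nudt16 (0.87), Birc2 (0.86), H2-T22 (0.85), Atg12 (0.81), Npc2 (0.80), Tmlhe (0.80) and Id2 (0.80). H2-T23 and H2-T22 encode class I-like major histocompatibility proteins, Srgn encodes a granule proteoglycan of blood cells, and Id2 encodes an inhibitor of basic helix-loop-helix factors. H2-T23 ran from 0.984 TPM in MP tumor 6 to 48.4 TPM in MP tumor 4, and 8 of the 10 genes were highest in MP tumor 4. Likeness was ranked over 10 points that share libraries, and no test was made.

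The other junction genes that passed the test were lower as well. Of 31 genes of tight junctions, adherens junctions and desmosomes, 25 were tested, of which 7 were lower, none higher and 18 not called, with a median log2 fold change of -1.47. Over all tested genes 14.3% were lower and the median was -0.58. Cldn1 and Dsp reached 1 TPM in 1 and 2 tumors, so they entered the test through the ovaries and their calls add no support. The 7 were the tight junction genes Cldn1 and Marveld2, the catenin gene Ctnna1, and the desmosomal genes Dsp, Dsg2, Dsc2 and Ppl. Cldn1 went from 16.8 to 18.4 TPM in the ovaries to 0 to 4.87 TPM in the tumors (log2 fold change -3.53 ± 0.45 SE, limma adjusted P = 5.26e-05). Dsp, which encodes the desmosomal linker to keratin filaments, went from 26.5 to 55.0 TPM to 0.0236 to 12.7 TPM (-4.48, standard error 0.66, limma adjusted P = 0.000245). Ctnna1, which encodes the alpha-catenin that joins cadherins to actin, went from 436 to 486 TPM to 10.9 to 292 TPM (-2.61, limma adjusted P = 0.0394). A few genes outside the naming rule were picked after their values were seen. Cdh3, which encodes P-cadherin, stood at no more than 14.4 TPM in the ovaries and at 113 and 166 TPM in MP tumors 5 and 9, but 6 tumors lay below every ovary and the median tumor was at 6.35 TPM (log2 fold change -0.42, limma adjusted P = 0.819). Cldn10 stood at 298 TPM in MP tumor 9 against at most 6.52 TPM in an ovary, with a median of 1.08 TPM in the tumors (log2 fold change -0.51, limma adjusted P = 0.799). Cdh2, which encodes N-cadherin, stood at 22.3 to 32.7 TPM in the ovaries and 0.155 to 38.4 TPM in the tumors, without a call (limma adjusted P = 0.0772).

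Of 17 epithelial regulators and surface proteases, 14 were tested, of which 4 were lower, none higher and 10 not called, with a median of -0.96, beside 14.3% lower and a median of -0.58 over all tested genes. Esrp1 and St14 were under 1 TPM in every tumor and Spint1 reached 1 TPM in 1 tumor, so 3 of the 4 entered the test through the ovaries and their calls add no support. Esrp1, which encodes an epithelial splicing regulator, went from 3.08 to 5.73 TPM in the ovaries to 0 to 0.418 TPM in the tumors (log2 fold change -2.32 ± 0.22 SE, limma adjusted P = 2.78e-06). Its relative Esrp2 went from 10.6 to 14.7 TPM to 0.449 to 14.4 TPM (-1.93, limma adjusted P = 0.0475). The protease gene St14 (-1.33, limma adjusted P = 0.000838) and its inhibitor gene Spint1 (-2.50, limma adjusted P = 1.51e-05) make up the 4. Of 13 other keratins, 5 were tested and none was called in either direction over all libraries. Within the first igo number, where 57.3% of all tested genes were lower and 6.44% higher, 2 of these keratins were lower and 1 higher. The highest by mean level were Krt10, at 4.22 to 5.08 TPM in the ovaries and 2.73 to 13.9 TPM in the tumors, and Krt14, a basal keratin, at no more than 0.958 TPM in the ovaries and 52.2 TPM in MP tumor 9.

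Genes that repress epithelial genes were not higher by the test over all libraries. Of Snai1, Snai2, Zeb1, Zeb2, Twist1, Twist2 and the mesenchymal filament gene Vim, 2 were lower, none higher and 5 not called, with a median of -1.76, beside 14.3% lower and a median of -0.58 over all tested genes. Zeb2 went from 29.3 to 29.5 TPM in the ovaries to 0.523 to 25.6 TPM in the tumors (log2 fold change -2.35, limma adjusted P = 0.0241) and Snai2 from 22.7 to 30.2 TPM to 0.874 to 23.2 TPM (-2.06, limma adjusted P = 0.0306). Twist2, picked after its values were seen, had a positive log2 fold change of 1.46 over all libraries and did not pass (limma adjusted P = 0.265). Within the first igo number, where 57.3% of all tested genes were lower and 6.44% higher, 6 of the 7 genes were lower. Twist2 was the 1 called higher there. It stood at 2.15, 3.52 and 11.9 TPM in MP tumors 1 to 3 and at 0.530 to 0.663 TPM in the ovaries.

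Markers of some ovarian cell types differed between the groups and others were not called. The counts of all these lists are to be read beside the 14.3% of all tested genes that were lower and the 2.51% that were higher. The summed level of 6 mesothelial and surface epithelial markers was 221 to 254 TPM in the ovaries and 3.51 to 702 TPM in the tumors, where 8 of 10 lay below every ovary, and 3 of the 6 markers (Muc16, Upk1b and Msln) were lower. This sum was 166, 256 and 702 TPM in MP tumors 4, 5 and 9, the 3 tumors with the most Krt19, and 26.3 TPM or less in the other 7. In MP tumor 5 Wt1 was at 163 TPM and Upk3b at 75.9 TPM. Upk1b, Msln and Muc16 were below every ovary there, at 3.57, 0.374 and 0.540 TPM, and Lrrn4 was within their range at 12.6 TPM. MP tumors 5 and 9 also had the highest sums of fibroblast markers, 1565 and 3369 TPM, whereas MP tumor 4 had 125 TPM. Of 7 granulosa cell markers 6 were lower, with a sum of 3784 to 7198 TPM in the ovaries and 18.2 to 1530 TPM in the tumors, and Hsd17b1 was not called (limma adjusted P = 0.0609). Fshr and Cyp19a1 were at 0 in the median tumor, whereas Inha had a median of 64.6 TPM and a highest value of 1430 TPM, Foxl2 a median of 15.7 TPM, and Hsd17b1 a median of 40.7 TPM. Of 6 theca and luteal cell markers 5 were lower, and of 7 oocyte markers 7. Cyp19a1 and the oocyte markers Zp1, Zp2, Bmp15, Oosp1 and Nlrp5 were under 1 TPM in every tumor, and Fshr, Lhcgr, Zp3 and Muc16 reached 1 TPM in 1 tumor each. All of these entered the test through the ovaries, so the counts of their lists are descriptions. All 3 ovaries expressed the markers of granulosa, theca and luteal cells and oocytes, as their label says. The 6 oviduct epithelial markers summed to 8.49 to 10.3 TPM in the ovaries and 1.89 to 114 TPM in the tumors, and 1 of the 3 tested, Sox17, was lower. Pax8, also picked after its values were seen, was at 23.2 TPM in MP tumor 9, at 1.57 TPM in MP tumor 5 and at 0.0945 TPM or less in the other tumors. Of 5 fibroblast markers 2 were lower, of 4 smooth muscle markers 3, of 4 endothelial markers 2, and of 4 leukocyte markers tested 0 were called. Lyz2 and Cd68, the leukocyte markers with the highest mean level, had log2 fold changes of -0.42 and -0.76 (limma adjusted P = 0.635 and 0.337). The part of these cell types, of depth and of the igo number in the levels of the 9 genes was not tested.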

How the data were processed

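Bulk RNA of 3 WT ovaries and 10 MP EPO-GEMM tumors was compared. The authors deposited TPM values per gene and library. The submitters' processing notes name FastQC 0.11.5, Trimmomatic 0.36, STAR 2.5.3a, featureCounts 1.6.3 and mouse GRCm38, whereas another label names a human build, HTSeq and RPKM. In the table, 96.0% of 53465 genes had the start and end of GENCODE M21, so GRCm38 was used. Each library's TPM adds up to 1000000, which makes every value relative to the rest of its library. Multiplied by gene length, 100% of values were whole steps (tolerance 0.01), and the step was taken as 1 read, which gave the depth. Counts of reads limit low values, and the floor of 3 reads covers counting error only. Pairs of libraries of a group differed by more than sampling noise (chi-square per degree of freedom of at least 25.8), so none was taken for 1 library deposited again, although repeat libraries of 1 animal would also differ by more than this noise.

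Genes with at least 1 TPM in at least 3 libraries (17277) were tested on log2(TPM + 1) with limma 3.58.1 (trended, robust) in R 4.3.3, all 13 libraries in 1 fit without a covariate, with Benjamini-Hochberg adjustment over all tested genes at 0.05. Fold changes on this scale understate low genes. The same fit was made in the libraries of the first igo number. The labels do not say that each library came from its own animal, so P values measure only the spread between libraries, which may be technical. Pearson and Spearman correlations had 2-sided permutation tests (100000 resamples for 10 tumors, exact for fewer), adjusted over 36 pairs. A gene whose sorted levels left a gap of more than 40% of the range and 2 log2 units, with at least 2 tumors on each side, was treated as forming separate sets. The replicate numbers shared by ovaries and tumors 1 to 3 belong to different animals.

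Named genes were the 9 genes, the genes past the threshold in each further list (or the 2 with the highest mean), and the 10 most alike over the tumors, and a gene picked outside this rule is named as such. The members and lists were chosen with earlier results of these data known. Alternatives varied the pseudocount, filter, scaling, covariate, block and libraries, and voom was run on recovered reads. Scripts were tested on simulated data. Python 3.11.15, pandas 2.3.3, numpy 2.4.6, scipy 1.17.1 and matplotlib 3.10.9 were used. No columns were left unused, and no comparison columns of the authors were in the table.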

Additional observations from a re-analysis of the deposited data

Results flagged for a closer look

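Of the 9 genes tested for a tumor far from the other 9 on the log2(TPM + 1) scale, 2 had one, and in each it was MP tumor 1. Cdh1 stood at 7.15 TPM there, where the gap to the next tumor was 0.587 of the whole range against a critical value of 0.466. Cldn4 stood at 60.0 TPM there, with a gap of 0.604 of the range. Chance alone flags about 1 in 20 such groups. In MP tumor 1, Krt8 and Krt18 were above every ovary at 93.2 and 90.9 TPM, Krt19 was at 2.10 TPM, Cldn3 at 2.21 TPM and Cldn7 at 0.143 TPM. Its library held 16499660 recovered reads, among the deeper tumor libraries, and the 2 values rest on far more than the floor of 3 reads.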

How the results depend on the processing

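For all libraries, Epcam and Cdh1 were called lower under each of 21 alternatives, of which the replicate block used only the libraries of replicates 1 to 3. Cdh1 entered the test largely through the ovaries, so its repeated calls are a description. The count of lower genes among the 9, 4 as reported, was 2 with quantile normalization, 6 with the igo number as a covariate, 5 with voom, and 2 to 5 when 1 library was left out, with 2 without WT ovary replicate 2. Cldn3 turned to 0.10 with quantile normalization. Within the first igo number the count, 6 as reported, was 4 with median-of-ratios scaling (5461 of all tested genes lower) and 5 to 9 when 1 library was left out (8671 to 10668 lower), Krt18 and Cldn4 turned to 0.44 and 0.71 with median-of-ratios scaling, and Cldn4 turned to 0.80 without MP tumor 2 and to 0.85 without MP tumor 3, in a range of -2.03 to 0.85 when 1 library was left out. With the replicate number as a block the count was 6 and 9838 genes of all tested were lower. Same-numbered libraries had correlations of -0.096, -0.021 and 0.001 between their deviations, and not every library correlated best with its own number. Deviations from the mean of 3 libraries cannot decide whether the numbers pair libraries. The count of correlated pairs, 2 as reported, was 5 with a pseudocount of 0.1, 6 with median-of-ratios scaling, and 1 to 8 when 1 tumor was left out, with 1 without MP tumor 2 or 5, 5 without MP tumor 7 and 8 without MP tumor 1. The cause of these changes was not tested. Over all tested genes, 433 were higher and 2463 lower as reported. These counts were 1276 and 1896 with median-of-ratios scaling, 1904 and 2091 with quantile normalization, 1879 and 4042 with voom, 894 and 8534 with the igo covariate, and 94 to 153 and 1158 to 1195 without 1 ovary. Depth limits Krt19, Cdh1, Cldn4 and Cldn7 most, since they had no read in 3, 1, 1 and 4 tumors.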
